A study of Arabidopsis thaliana with 12 samples.

Results

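The genes described here are the nuclear genes of Arabidopsis thaliana that encode subunits and assembly factors of the photosystems, of the chloroplast NDH complex and of the thylakoid membrane. A gene was a member when it is nuclear, has a probe set that names it alone, and has a symbol beginning with LHCA, LHCB, LIL, CRR, HCF, NDH, NDF, PNSB, PNSL, PPL, PQL, PSB or LPA, or made of PSA with a further letter and an optional digit, or equal to CYTC6A or SPPA. Of the 13356 genes named by such a probe set, 24 were members, each through a single probe set. In the gene table used for names, 95 nuclear symbols match the rule, so most genes of these complexes are not described here. The rule reads symbols and annotation, and would use expression values only to pick the brightest of several probe sets of a gene. It was chosen with earlier results of these data known, so the counts of called members are not an independent test.

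RNA came from leaves of cs26, a SALK T-DNA insertion line (SALK_034133) affecting a chloroplast S-sulfocysteine synthase, and from leaves of the Col-0 wild type. The groups were cs26 in short days, wild type in short days, cs26 in long days and wild type in long days, with 3 arrays each that the submitters call biological replicates. Short days had 8 h of light and 16 h of dark and the plants were 5 weeks old, and long days had 16 h of light and 8 h of dark and the plants were 3 weeks old, so photoperiod and age cannot be told apart. All plants grew in soil with Hoagland medium with days at 20 °C and nights at 18 °C, and the mutant is represented by 1 insertion line. No probe set names CS26 alone, so the genotype labels were not checked against its level.

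Photosystem II and photosystem I are pigment-protein complexes that carry electrons through the thylakoid membrane, and the NDH complex returns electrons from ferredoxin to the membrane around photosystem I. The subunits of all of these come from both the nuclear and the plastid genome. Nuclear assembly factors insert cofactors, process subunits or edit the plastid transcripts, and many were found in mutants that accumulate little of a complex, from which names such as LPA (low photosystem II accumulation), HCF (high chlorophyll fluorescence) and CRR (chlororespiratory reduction) derive. S-sulfocysteine synthase is a chloroplast enzyme of the cysteine synthase family.

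All values are log2 expression values of probe sets as the authors deposited them, and a difference of 1 on this scale is a 2-fold difference. Differences are given as a log2 fold change ± its standard error from limma, with Benjamini-Hochberg adjustment over all 22746 probe sets tested, and a gene was called at an adjusted p under 0.05. Array medians lay between 5.42 and 5.51, and 23 of the 24 members were brighter than the median probe set, CRR22 being the exception. Levels of different probe sets are not compared, because probes differ in binding. RMA leaves no count of molecules, so precision is limited by the number of arrays. In whole leaves, fewer cells of a type and less RNA per cell cannot be told apart. The leaf mesophyll markers RCA (Rubisco activase) and SBPASE (a Calvin cycle phosphatase) were bright in every group, with RCA between 13.03 and 14.06.

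**Figure D1:**
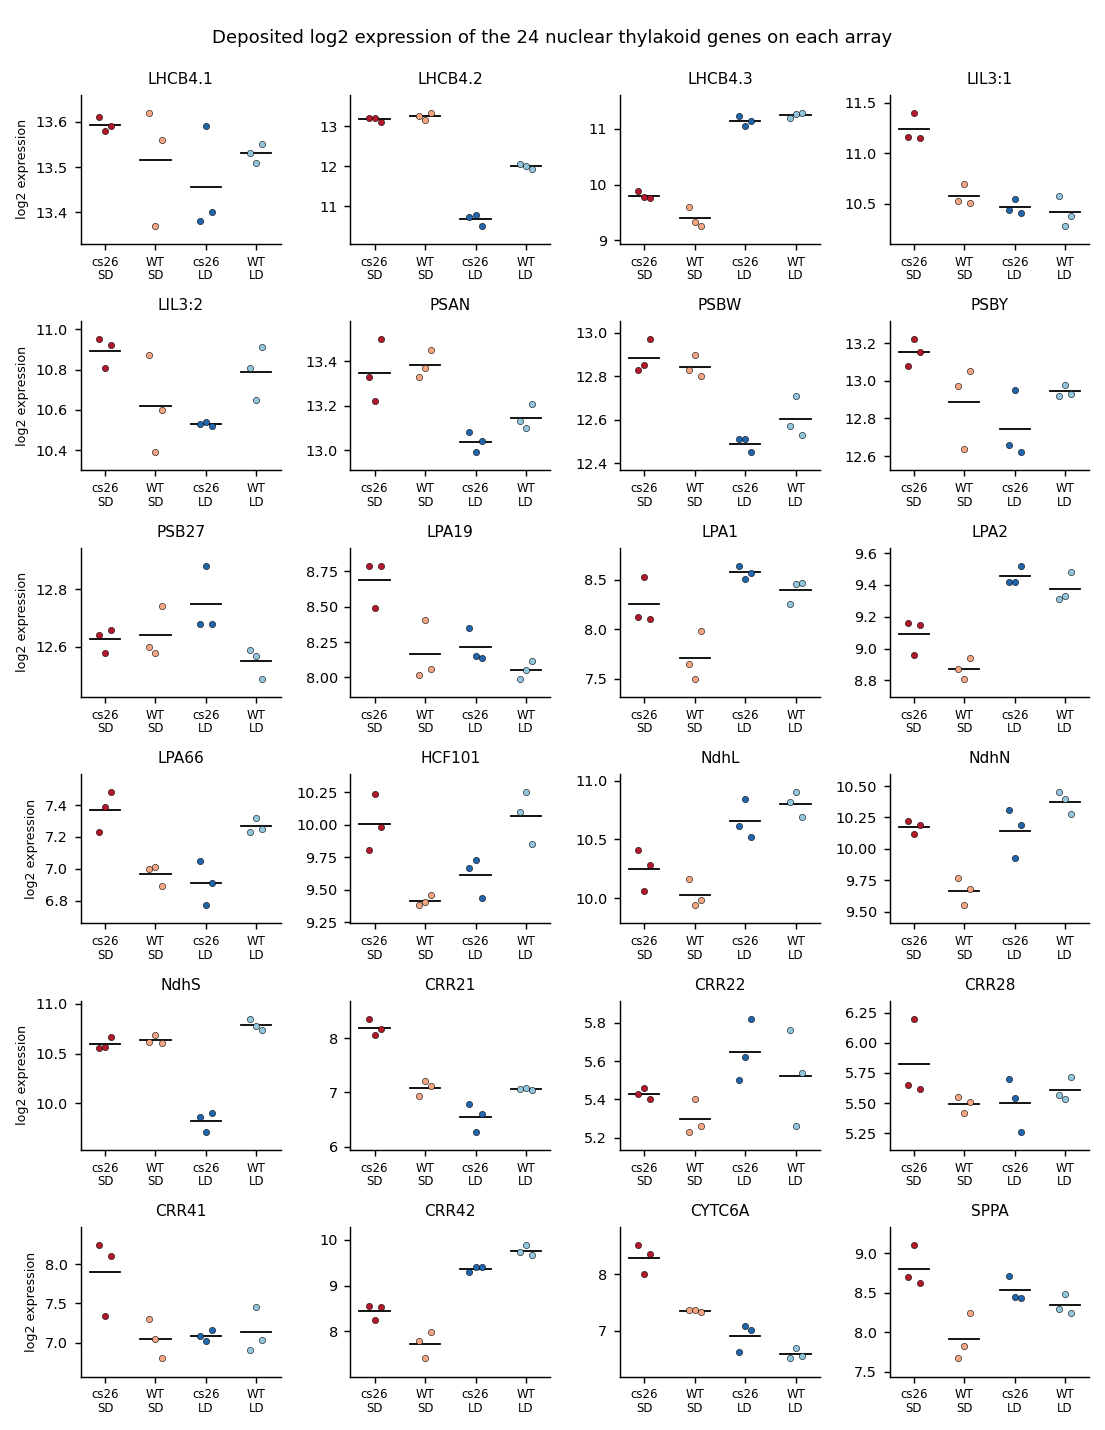
Log2 expression of the 24 members on each of the 12 arrays, 1 panel per gene with its own vertical range, with 3 points and their mean (line) for each group in short days (SD) and long days (LD). CRR21 in short days lay at 8.06 to 8.36 in cs26 and at 6.93 to 7.22 in wild type, while LHCB4.2 in long days lay at 10.51 to 10.79 in cs26 and at 11.94 to 12.06 in wild type.

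In short days, 12 of the 24 genes were higher in cs26 than in wild type and 0 were lower. Over all probe sets tested, 8.89% were called higher and 7.84% lower. Bright probe sets were called more often, 16.8% higher and 13.6% lower among the brightest 30%. The median log2 fold change over the 24 genes was 0.365, against 0 over all probe sets tested. The called genes were the assembly and editing factors CRR21, CRR41, CRR42, LPA1, LPA19, LPA66 and HCF101, the lumenal cytochrome CYTC6A, the protease SPPA, the light-harvesting genes LIL3:1 and LHCB4.3, and the NDH subunit NdhN. Their log2 fold changes ran from 0.40 to 1.11, and only CRR21 passed 2-fold. The 12 genes that were not called lay between -0.08 and 0.33, and 4 of them, LIL3:2, LPA2, PSBY and CRR28, had an unadjusted p under 0.05. By array, 15 genes had all 3 cs26 values above all 3 wild type values and 0 had them all below, against 15.0% and 14.8% of all probe sets.

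In long days, 6 of the 24 genes were lower in cs26 than in wild type and 0 were higher. Over all probe sets tested, 11.8% were called lower and 12.8% higher, and among the brightest 30% these shares were 20.5% and 22.9%. The median over the 24 genes was -0.11, against -0.01 over all probe sets. The 6 were LHCB4.2, NdhS, CRR21, HCF101, CRR42 and LPA66, with log2 fold changes between -1.32 and -0.36. The 18 genes not called lay between -0.26 and 0.33. By array, 9 genes had all cs26 values below all wild type values and 3 had them all above, against 19.4% and 18.9% of all probe sets. The called share of the members in long days was thus 6 of 24, beside 24.6% of all probe sets in either direction.

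The difference between the cs26 effects in short and long days was tested directly as an interaction. It was positive in 23 of the 24 genes, the exception being PSB27 at -0.21, and was called in 13, all positive. Over all probe sets tested, 11793 of 22746 were positive. Over all probe sets, 27.6% were called in either direction, 14.8% positive and 12.7% negative, and among the brightest 30% the shares were 24.2% positive and 21.5% negative. The median difference over the 24 genes was 0.52, against 0.01 over all probe sets. A group of 4 genes, LPA66, HCF101, CRR21 and CRR42, was higher in cs26 in short days and lower in cs26 in long days. This pattern took in 16.7% of the members and 2.5% of all probe sets tested. A further 8 genes were called higher in short days and not called in long days, 33.3% of the members beside 5.25% of all probe sets. For LPA19 and LPA1 among these 8 the difference was not called either. LHCB4.2 and NdhS were called lower in long days and not called in short days, and for both the difference was called. This pattern took in 8.33% of the members, about the same as the 8.69% of all probe sets.

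**Figure D2:**
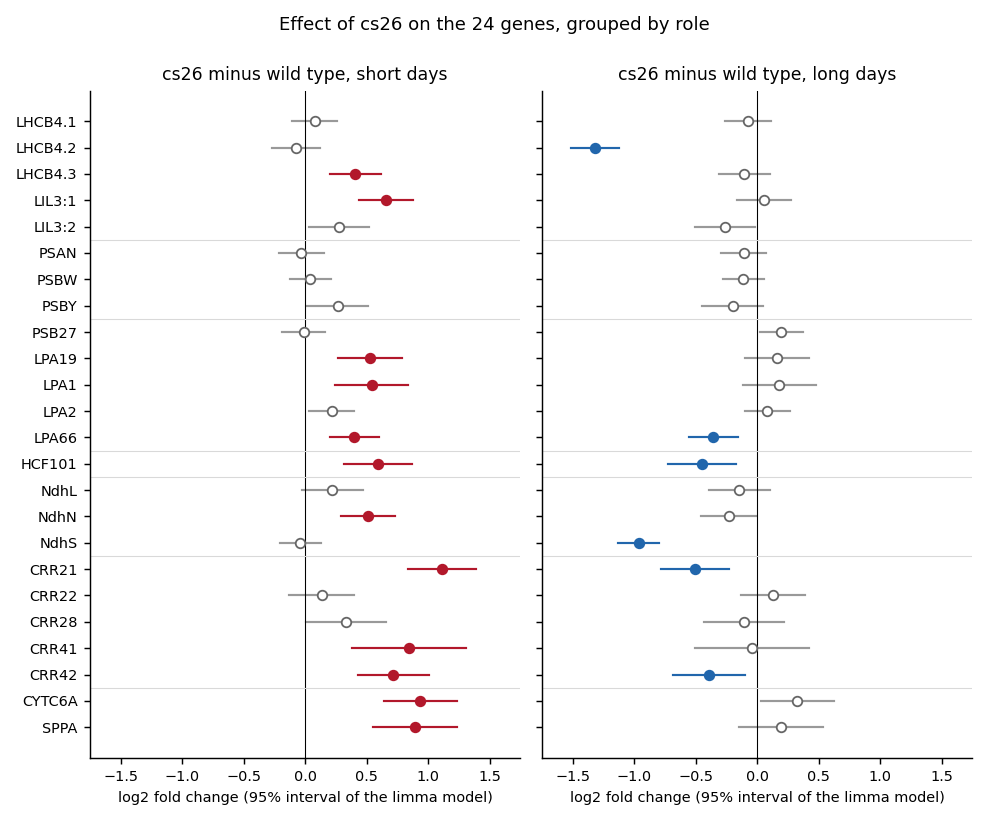
Log2 fold change of cs26 against wild type for each of the 24 genes in short days (left) and in long days (right), with 95% intervals of the limma model and filled points for genes called at an adjusted p under 0.05. In short days the called genes run from 0.40 to 1.11 and in long days from -1.32 to -0.36.

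**Figure D3:**
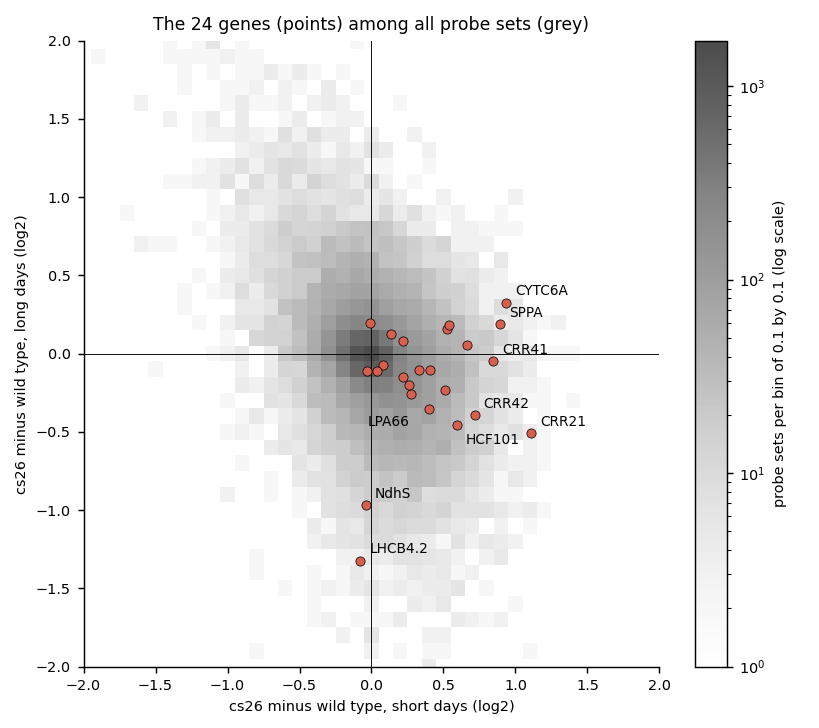
Short-day log2 fold change of cs26 against wild type on the horizontal axis and the long-day one on the vertical axis, with the 24 genes as points over the density of all probe sets in bins of 0.1 (probe sets beyond 2 in either direction lie outside the axes). LPA66, HCF101, CRR21 and CRR42 lie to the right of 0 and below 0, and LHCB4.2 and NdhS lie near 0 in short days and far below 0 in long days.

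Among the light-harvesting genes, the isoforms of CP29, a minor antenna protein of photosystem II, differed from one another. LHCB4.2 (AT3G08940) had 13.21, 13.21 and 13.11 in cs26 in short days, against 13.27, 13.15 and 13.34 in wild type. Its long-day values were 10.73, 10.79 and 10.51 in cs26, against 12.06, 12 and 11.94 in wild type. The short-day groups overlapped, and in long days every cs26 value was more than 1 log2 unit below every wild type value. The long-day log2 fold change was -1.32 ± 0.09 (adjusted p = 2.51e-07) and the short-day one was -0.08, with a 95% interval of -0.27 to 0.12. The difference between the photoperiods was 1.25 (adjusted p = 1.03e-05). LHCB4.1 (AT5G01530), at 13.37 to 13.62 on all 12 arrays, was called in neither photoperiod.

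LHCB4.3 (AT2G40100), a divergent CP29 isoform, had 9.88, 9.77 and 9.76 in cs26 in short days, against 9.60, 9.33 and 9.26 in wild type. Each cs26 value was above each wild type value, with a log2 fold change of 0.41 ± 0.09 (adjusted p = 0.011). In long days the groups overlapped, at 11.06 to 11.23 in cs26 and 11.19 to 11.29 in wild type.

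LIL3:1 and LIL3:2 are light-harvesting-like proteins that hold enzymes of chlorophyll synthesis at the membrane. LIL3:1 (AT4G17600) had 11.16, 11.40 and 11.15 in cs26 in short days, against 10.53, 10.69 and 10.51 in wild type. The groups did not overlap, and the log2 fold change was 0.66 ± 0.10 (adjusted p = 0.000814). In long days LIL3:1 had 10.41 to 10.55 in cs26 and 10.28 to 10.58 in wild type, which overlapped. LIL3:2 (AT5G47110) had log2 fold changes of 0.27 in short days (adjusted p = 0.125) and -0.26 in long days (adjusted p = 0.125), neither called, while their difference was called at 0.53 (adjusted p = 0.0248). That call was lost without any of 6 single arrays, 3 of each photoperiod (adjusted p up to 0.0631), and LIL3:2 was called in short days without the first wild type array (adjusted p = 0.0272).

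The photosystem subunits PSAN (AT5G64040, a lumenal subunit of photosystem I), PSBW (AT2G30570) and PSBY (AT1G67740, both small membrane subunits of photosystem II) were called in neither photoperiod. PSAN lay at 13.22 to 13.50 in cs26 and 13.33 to 13.45 in wild type in short days, and in long days at 12.99 to 13.08 in cs26 and 13.10 to 13.21 in wild type. PSBW had log2 fold changes of 0.04 in short days, with a 95% interval of -0.13 to 0.21, and -0.11 in long days. PSBY had 0.26 in short days and -0.20 in long days, and the difference of 0.46 had an adjusted p of 0.0514, which fell to 0.0276 without the third short-day wild type array and 0.0185 without the second long-day cs26 array. These subunits belong to the 6 members whose mean over all arrays was above 12, of which 0 were called in short days and 1, LHCB4.2, in long days. Of the 18 other members, 12 were called in short days and 5 in long days. Over all probe sets, 28 of the 175 with a mean above 12 were called in short days and 70 in long days, beside 16.7% and 24.5% of those not above 12. The highest value on any array was 14.18 to 14.27, and whether the brightest probe sets were compressed was not tested.

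Of the photosystem II assembly genes, 3 of 5 were higher in cs26 in short days, beside 8.89% of all probe sets. LPA19 (AT1G05385), a Psb27 homolog with a role in maturing the D1 protein, had 8.79, 8.49 and 8.79 in cs26, against 8.02, 8.41 and 8.06 in wild type. The groups did not overlap, though the second wild type array came within 0.08 of the lowest cs26 value, and the log2 fold change was 0.53 ± 0.12 (adjusted p = 0.00914). LPA1 (AT1G02910), an assembly factor that acts on D1, had 8.12, 8.53 and 8.10 in cs26, against 7.65, 7.50 and 7.98 in wild type, a log2 fold change of 0.54 ± 0.14 (adjusted p = 0.0179). The call of LPA1 was lost without the second cs26 array (adjusted p = 0.0586), the first wild type array (0.0654) or the second wild type array (0.0767). In long days neither LPA19 at 0.16 nor LPA1 at 0.18 was called. Of the 5 assembly genes, 1 was lower and 0 higher in long days, beside 11.8% and 12.8% of all probe sets.

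LPA66 (AT5G48910), a pentatricopeptide repeat protein that edits the plastid psbF transcript, had 7.23, 7.39 and 7.48 in cs26 in short days, against 7, 7.01 and 6.89 in wild type. Its long-day values were 7.05, 6.77 and 6.91 in cs26, against 7.23, 7.32 and 7.25 in wild type. Neither pair of groups overlapped, and the order of the genotypes turned round between the photoperiods. The log2 fold changes were 0.40 ± 0.09 in short days (adjusted p = 0.0103) and -0.36 ± 0.09 in long days (adjusted p = 0.0121), with a difference of 0.76 (adjusted p = 0.000837). The long-day call was lost without the second cs26 array (adjusted p = 0.059) or with a trended robust prior (0.053). LPA2 (AT5G51545) and PSB27 (AT1G03600), which act in the assembly and repair of photosystem II, were called in neither photoperiod, with short-day log2 fold changes of 0.22 and -0.01.

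HCF101 (AT3G24430), a scaffold for the iron-sulfur clusters of photosystem I, was the 1 photosystem I assembly gene. It had 9.81, 10.24 and 9.98 in cs26 in short days, against 9.38, 9.41 and 9.46 in wild type. The long-day arrays gave 9.67, 9.73 and 9.44 in cs26, against 10.10, 10.25 and 9.85 in wild type. As for LPA66, the groups overlapped in neither photoperiod and the order turned round. The log2 fold changes were 0.59 ± 0.13 (adjusted p = 0.00668) in short days and -0.45 ± 0.13 (adjusted p = 0.019) in long days, and the difference was 1.05 (adjusted p = 0.000811). The long-day call was lost without the third cs26 array (adjusted p = 0.0894) or without the first (0.061) or second (0.0892) wild type array.

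The NDH subunits measured were NdhN, NdhS and NdhL. NdhN (AT5G58260), a stromal subunit, had 10.22, 10.12 and 10.19 in cs26 in short days, against 9.77, 9.55 and 9.68 in wild type. The groups did not overlap, and the log2 fold change was 0.51 ± 0.10 (adjusted p = 0.00453). The long-day values were 10.31, 9.93 and 10.19 in cs26, against 10.45, 10.40 and 10.28 in wild type, a log2 fold change of -0.23 that was not called (adjusted p = 0.13).

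NdhS (AT4G23890), the subunit that binds ferredoxin, had 10.56, 10.57 and 10.67 in cs26 in short days, against 10.62, 10.69 and 10.61 in wild type, and these overlapped. In long days it had 9.86, 9.71 and 9.90 in cs26, against 10.85, 10.78 and 10.74 in wild type, and every cs26 value was lower. The long-day log2 fold change was -0.97 ± 0.08 (adjusted p = 1.08e-06), the short-day one was -0.04 (95% interval -0.21 to 0.13), and the difference was 0.93 (adjusted p = 3.9e-05). NdhL (AT1G70760), a membrane subunit, was called in neither photoperiod, with 0.22 in short days and -0.15 in long days.

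CRR21 (AT5G55740), a pentatricopeptide repeat protein that edits the plastid ndhD transcript, had the largest difference between photoperiods of the 24 genes. It had 8.36, 8.06 and 8.17 in cs26 in short days, against 6.93, 7.22 and 7.11 in wild type. In long days it had 6.78, 6.27 and 6.61 in cs26, against 7.07, 7.08 and 7.04 in wild type. The wild type thus lay at about the same level in both photoperiods, and the cs26 arrays lay above it in short days and below it in long days. The log2 fold changes were 1.11 ± 0.13 (adjusted p = 8.89e-05) and -0.51 ± 0.13 (adjusted p = 0.0096), with a difference of 1.62 ± 0.18 (adjusted p = 2.24e-05).

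CRR41 (AT1G51100) and CRR42 (AT5G20935) are stromal factors in the assembly of NDH subcomplex A. CRR41 had 8.24, 7.34 and 8.11 in cs26 in short days, against 7.30, 7.05 and 6.80 in wild type, and the second cs26 array lay close to the wild type. Its log2 fold change was 0.85 ± 0.21 (adjusted p = 0.0167), and the call was lost without the first cs26 array (adjusted p = 0.06), the third cs26 array (0.068) or the third wild type array (0.0569). CRR42 had 8.54, 8.25 and 8.53 in cs26 in short days, against 7.79, 7.40 and 7.98 in wild type, and the groups did not overlap.

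In long days CRR42 had 9.30, 9.41 and 9.40 in cs26, against 9.73, 9.88 and 9.68 in wild type, again without overlap and in the opposite order. The log2 fold changes of CRR42 were 0.72 ± 0.13 (adjusted p = 0.00291) in short days and -0.39 ± 0.13 (adjusted p = 0.0492) in long days. The long-day call of CRR42 is the weakest of those given here: it was lost without any one of the long-day arrays (adjusted p up to 0.167), though the difference of 1.11 between the photoperiods (adjusted p = 0.000771) was called in every alternative. CRR22 (AT1G11290) and CRR28 (AT1G59720), which also edit ndh transcripts, lay at 5.23 to 5.82 and 5.26 to 6.20 on all arrays, near the median probe set, and were called in neither photoperiod.

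CYTC6A (AT5G45040), a lumenal cytochrome c6A, had 8.51, 8.00 and 8.36 in cs26 in short days, against 7.36, 7.36 and 7.34 in wild type. The groups did not overlap, and the log2 fold change was 0.94 ± 0.14 (adjusted p = 0.000575). In long days it had 6.63, 7.09 and 7.01 in cs26, against 6.51, 6.69 and 6.55 in wild type, a log2 fold change of 0.33 that was not called (adjusted p = 0.114). It was called without the first long-day cs26 array (adjusted p = 0.0222) or the second short-day cs26 array (0.0482). SPPA (AT1G73990), a light-inducible thylakoid protease, had 8.70, 9.10 and 8.62 in cs26 in short days, against 7.67, 7.83 and 8.24 in wild type. Its groups did not overlap either, and the log2 fold change was 0.89 ± 0.16 (adjusted p = 0.00197), while the long-day one of 0.19 was not called (adjusted p = 0.482).

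The same arrays also give the photoperiod difference within each genotype. These 2 comparisons share their arrays with those above, so their values are set side by side only. In cs26, 13 of the 24 genes were higher in short than in long days and 4 were lower, beside 21.5% and 21.8% of all probe sets. In wild type, 4 were higher and 9 were lower, beside 21.8% and 23.0%. Among the brightest 30% of probe sets, 31.3% were higher and 31.8% lower in cs26, and 30.5% and 32.5% in wild type. The difference between the 3′ and 5′ control probe sets also separated the photoperiods. For actin it was 1.99 to 2.17 in short days and 1.07 to 1.24 in long days in cs26, and 1.86 to 2.48 in short days and 0.92 to 1.31 in long days in wild type. For GAPDH it was 0.16 to 0.40 over all short-day arrays and -0.30 to -0.02 over all long-day arrays, and its part in the photoperiod differences was not tested. CRR21 had a short-against-long-day log2 fold change of 1.64 in cs26 and was not called in wild type. HCF101 had 0.40 in cs26 and -0.65 in wild type, and LPA66 had 0.46 in cs26 and -0.30 in wild type. The HCF101 call in cs26 was lost without the second short-day (adjusted p = 0.0896) or the third long-day (0.102) cs26 array, and the LPA66 call in wild type without the third short-day (0.0627) or the second long-day (0.0592) wild type array or with a trended robust prior (0.0663). LHCB4.2 was higher in short days in both genotypes, by 2.50 in cs26 and 1.25 in wild type. CRR42 was lower in short days in both, with -0.93 in cs26 and -2.04 in wild type, as was LHCB4.3 with -1.34 in cs26 and -1.85 in wild type.

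**Figure D4:**
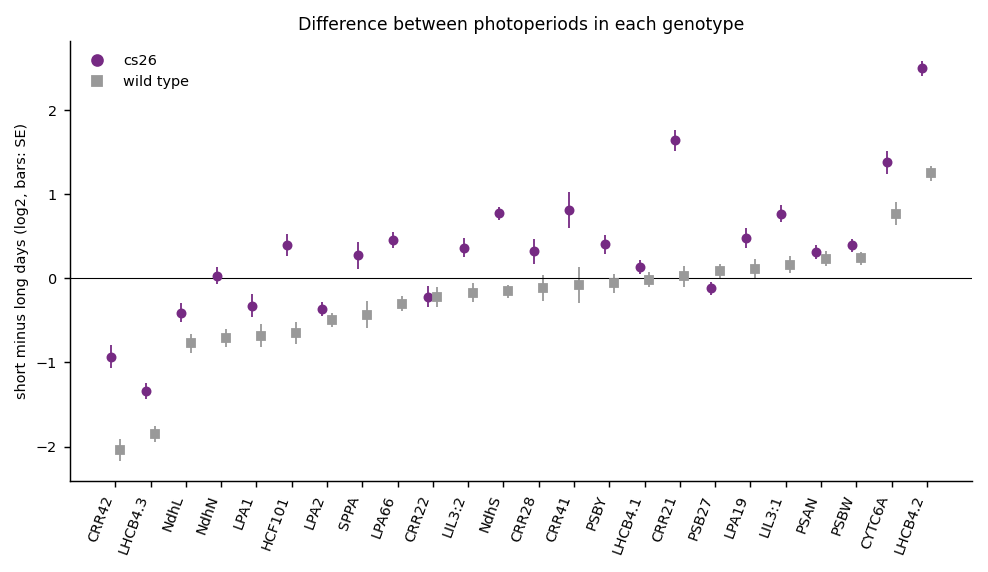
Log2 fold change of short against long days for each of the 24 genes in cs26 and in wild type, with standard errors. HCF101 and LPA66 are above 0 in cs26 and below 0 in wild type, and LHCB4.2 lies at 2.50 in cs26 and 1.25 in wild type.

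Several of the factors act on plastid transcripts that the array also measured, though a transcript level does not show whether it was edited or its product assembled. The psbF transcript, edited by LPA66, had 11.42, 11.54 and 11.49 in cs26 in short days, against 12.37, 12.59 and 12.30 in wild type. The long-day arrays gave 11.09, 11.03 and 10.79 in cs26, against 12.55, 12.46 and 12.65 in wild type. It was lower in cs26 on every array in both photoperiods, by log2 fold changes of -0.94 ± 0.10 (adjusted p = 6.34e-05) in short days and -1.58 ± 0.10 (adjusted p = 1.68e-07) in long days. LPA66 itself was higher in short days and lower in long days. The difference between photoperiods was 0.65 for psbF (limma adjusted p = 0.00496), beside 0.76 for LPA66.

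The ndhD transcript, edited by CRR21, was not called in short days (-0.48 ± 0.50, adjusted p = 0.596) or long days (-0.19, adjusted p = 0.868), and its short-day values in cs26 spread from 9.21 to 11.80. Of the transcripts of proteins that HCF101 serves, psaA was lower in cs26 in long days (-1.86 ± 0.55, adjusted p = 0.0256), and psaB and psaC were called in neither photoperiod. The psbA and psbC transcripts, whose products LPA1, LPA19 or LPA2 act on, were called in neither, psbC with a long-day log2 fold change of -1.01 (adjusted p = 0.147). The difference between photoperiods was -0.28 for ndhD, 1.85 for psaA, 0.95 for psaB and 1.09 for psaC. For psbA it was 0.41 and for psbC 1.10, and none of these differences was called. In short days the second cs26 array held the highest cs26 value of all 7 of these plastid transcripts, and its spread around the group mean over all probe sets, an SD of 0.208, was above that of the other arrays (0.104 to 0.155).

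**Figure D5:**
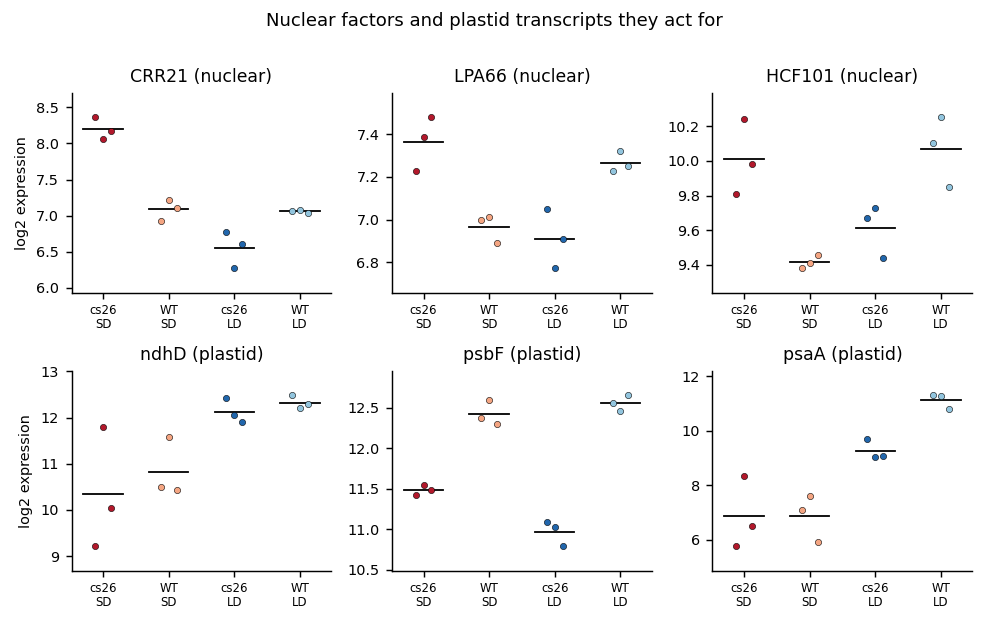
Log2 expression on each array of CRR21, LPA66 and HCF101 (top) and of the plastid transcripts ndhD, psbF and psaA below them, with lines at the group means in short days (SD) and long days (LD). The psbF transcript lies between 10.79 and 11.54 on all cs26 arrays and between 12.30 and 12.65 on all wild type arrays.

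Other genes of the pathway were taken from written lists, and their counts are to be read beside the 8.89% of all probe sets called higher and 7.84% lower in short days and the 12.8% called higher and 11.8% lower in long days. Of the 12 other nuclear thylakoid genes measured, 3 were higher in cs26 in short days and 0 lower, with a median log2 fold change of 0.18. In long days 1 was higher and 3 lower, with a median of -0.09. AT4G38100, named CURT1D and thus of a family that curves thylakoid membranes, had the largest short-day change of the list and was higher in both photoperiods. It had 7.96 to 8.23 in cs26 and 7.25 to 7.64 in wild type in short days, a log2 fold change of 0.69 ± 0.11 (adjusted p = 0.00097), and 8.49 to 8.59 in cs26 and 7.65 to 7.78 in wild type in long days, a log2 fold change of 0.79 ± 0.11 (adjusted p = 0.000138).

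PAM68, a photosystem II assembly factor, was higher in short days at 0.45 (adjusted p = 0.0231), and neither its long-day change nor its difference between photoperiods was called. CaS, a thylakoid calcium-sensing protein, was lower in long days at -0.95, and PGRL1B, which acts in cyclic electron flow, was lower in long days at -0.53. TROL, which anchors ferredoxin-NADP reductase, had 0.37 in short days and -0.28 in long days, both called. The difference between photoperiods was positive in 11 of the 12 other nuclear thylakoid genes. It was called in 3 of the 12, CaS, TROL and ATPC2, all positive. Of all probe sets 14.8% were called positive, and of the brightest 30% of them 24.2%.

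Of 8 genes of chlorophyll synthesis, 2 that act in its early steps were higher in short days, GSA1 at 0.37 and HEME2 at 0.46, and 0 were lower. In long days 4 were higher, GSA1 at 0.38, HEMB1 at 0.43, HEME1 at 0.36 and HEME2 at 0.61, and 1 was lower, the protochlorophyllide oxidoreductase PORB at -1.04. The 4 measured editing factors OTP80, OTP84, OTP85 and OTP86 were called by limma in neither photoperiod, and 2 of them had an unadjusted p under 0.05 in short days and 0 in long days.

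Of 36 plastid-encoded genes of the photosystems, the NDH complex and the cytochrome b6f complex, 4 were higher and 4 lower in cs26 in short days, beside 16.7% of all probe sets called in either direction. The lower ones were psbE, psbF, psbJ and psbL, and the higher ones were psaI, petL, ndhF and petA. In long days 2 were higher, psaI and petA, and 9 lower, beside 24.6% of all probe sets in either direction. The 9 were psbB at -2.86, psbT at -2.70, psbJ, psaA, psbE, psbD, psbF, psbL and psaJ at -0.42. The median log2 fold change of the 36 genes was 0.14 in short days and -0.47 in long days. The difference between photoperiods was positive in 33 of them, with a median of 0.66. It was called in 8, all positive, beside 14.8% of all probe sets called positive.

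Other measures moved with these comparisons, and their part in the results was not tested. Of 3 measured senescence markers, 2 were lower in cs26 in short days and 2 higher in long days, beside 7.84% and 12.8% of all probe sets. The log2 fold changes were -2.02 in short days and 2.48 in long days for WRKY53. For WRKY6 they were -0.32 in short days and 1.36 in long days. The mesophyll markers were called in neither photoperiod. In short days both had an unadjusted limma p under 0.05, with log2 fold changes of 0.40 for RCA and 0.20 for SBPASE. In long days 1 of the 2 did. For SBPASE the difference between photoperiods was called at 0.40 (adjusted p = 0.0284). Of 4 epidermal markers, TRY had 0.97 in short days and -0.48 in long days, and SPCH had 0.36 in long days. Of 2 markers of dividing cells, AUR2 had 0.49 in long days. The difference between photoperiods was positive in 23 of the 24 genes described here. It was also positive in 33 of the 36 plastid-encoded genes, 11 of the 12 other nuclear thylakoid genes and both mesophyll markers, beside 11793 of all 22746 probe sets. Other lists were mixed: it was positive in 3 of the 8 genes of chlorophyll synthesis, 2 of the 4 editing factors and 2 of the 4 epidermal markers. In all 3 senescence markers the difference was negative and called, beside 12.7% of all probe sets called negative. It was -4.50 for WRKY53, -1.68 for WRKY6 and -1.04 for SAG101. In both markers of dividing cells it was negative and called too, at -0.54 for AUR1 and -0.53 for AUR2. Among the epidermal markers it was called for TRY at 1.45. The 1 vascular marker measured was called in neither photoperiod, and 0 flower markers were measured.

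The mean of the Bacillus control probe sets in long days was 6.47 to 6.70 in cs26 and 7.03 to 7.21 in wild type, without overlap, and in short days 5.59 to 6.20 in cs26 and 5.66 to 5.69 in wild type. The second wild type array in long days had a 25S rRNA value of 9.64, against at most 5.12 elsewhere. Without it, 4 of the 24 genes were lower in cs26 in long days. The actin and GAPDH differences between 3′ and 5′ probe sets overlapped between genotypes within each photoperiod, the GAPDH one at 0.21 to 0.40 in cs26 and 0.16 to 0.29 in wild type in short days, and in long days at -0.30 to -0.02 in cs26 and -0.27 to -0.11 in wild type.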

How the data were processed

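Leaf RNA of 12 samples was hybridised to Affymetrix ATH1 arrays as biotin-labelled cRNA made from 4 µg of total RNA, per the labels' protocols. The deposited values are log2 expression values made by the authors with RMA and the affy package, per the submitters' processing notes, with versions not given in the sources used here. RMA corrects background and quantile-normalises the arrays, so a shift shared by most transcripts is removed, and dim probe sets are compressed. Of 22810 rows, 64 control probe sets were left out. Names come from the platform annotation, updated by gene number through the TAIR10.1 gene table.

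All 12 arrays entered 1 model with a mean per group (limma 3.58.1 in R 4.3.3, lmFit and eBayes, 8 residual and 4.32 prior degrees of freedom), and p-values were adjusted over 22746 probe sets. All members are named, and from each other list up to 4 called genes of the largest change, with further called genes where a count is given in full. Members and lists were chosen with earlier results of these data known, and the shares for the brightest 30% of probe sets, the split at a mean of 12 and the comparison of control probe sets was chosen after seeing the data. The labels do not say whether replicates were separate plantings, so p-values measure the spread between these samples. Scanner files and promoter sequences were not used here. Alternatives were quantile normalisation, a replicate block, array weights, a trended robust prior, fewer arrays or probe sets, a stricter threshold and leaving out each array.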

Additional observations from a re-analysis of the deposited data

Results flagged for a closer look

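For 13 genes the cs26 effect differed between the photoperiods by the limma interaction test with Benjamini-Hochberg adjustment over all probe sets (adjusted p from 1.03e-05 to 0.0436). Over all probe sets, 27.6% had such a difference in either direction. The differences, short minus long days on the log2 scale, were 1.62 for CRR21, 1.25 for LHCB4.2, 1.11 for CRR42, 1.05 for HCF101, 0.93 for NdhS, 0.89 for CRR41 and 0.76 for LPA66. They were 0.74 for NdhN, 0.70 for SPPA, 0.61 for CYTC6A, 0.61 for LIL3:1, 0.53 for LIL3:2 and 0.51 for LHCB4.3. Photoperiod and plant age cannot be told apart in any of them. The differences of LIL3:2, CRR41, CYTC6A and SPPA were each lost without several single arrays, with adjusted p up to 0.0631 for LIL3:2, 0.11 for CRR41, 0.0809 for CYTC6A and 0.0829 for SPPA, and the other 9 were called without any one array.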

How the results depend on the processing

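No log2 fold change that was called changed sign under any alternative. At an adjusted p under 0.01, 3 genes were called in long days, against 6 at 0.05, and the difference between photoperiods was called in 8, against 13. The other alternatives kept each count within 1.5 times its value. Leaving out 1 array at a time gave 11 to 12 calls in short days, 4 to 7 in long days and 10 to 14 for the difference. The calls that held in every alternative were those of LIL3:1, LPA19, HCF101, NdhN, CRR21, CRR42, CYTC6A and SPPA in short days and of LHCB4.2, NdhS and CRR21 in long days. For the difference they were LHCB4.2, LIL3:1, LPA66, HCF101, NdhN, NdhS, CRR21 and CRR42. The differences of LIL3:2, CRR41, CYTC6A and SPPA were each lost in several alternatives. With only the 6 short-day arrays, LHCB4.3, LPA1 and CRR41 were not called in short days. With array weights, CYTC6A was called higher in long days (0.35, adjusted p = 0.0289). With the replicate number as a block, 12 genes were called in short days, 5 in long days and 10 for the difference. The labels do not say whether the numbers pair the samples. Correlations cannot settle it, because deviations are taken from a mean of only 3 arrays. Deviations of same-numbered arrays correlated at -0.31 to 0.162, with 2 of 18 pairs over 0.1. Those of differently numbered arrays correlated at -0.355 to 0.421, with 12 of 36 pairs over 0.1.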
